A study of Mus musculus with 9 samples.

Results

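The genes described here build the receptors through which inhibitory neurons of the mouse central amygdala sense GABA and glycine, and the transporters that set the chloride gradient those receptors use. They were chosen by name as a list of 26 genes, of which 24 had a row in a count table of 22601 genes. The 24 were 13 GABA-A receptor subunit genes, both GABA-B receptor genes, 5 glycine receptor subunit genes, Gphn and Nlgn2 (scaffold and adhesion proteins of inhibitory synapses), and the chloride transporter genes Slc12a5 and Slc12a2. Gabra6 and Gabrp were not analysed here, and neither were GABA-A subunit genes outside the list.

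The data were single-cell RNA-seq counts of 829 cells in 9 samples of the central amygdala of wild-type (WT) B6 mice, with no treatment named (the sources used here do not give an age). The tissue was microdissected and dissociated, and cells were pooled over acute slices. The samples carried 3 animal numbers crossed with 3 date fields. Nothing says that each is a separate animal, and p-values therefore describe the spread among these samples alone, which may be technical. Kept as inhibitory neurons were 810 cells positive for a GABA-making or GABA-loading gene (Gad1, Gad2, Slc32a1) and negative for the glutamate transporter genes Slc17a7 and Slc17a6, and the other 19 were left out. A cell was called positive for a gene at 1 count or more per 10000 of its gene counts, with spike-in rows dropped.

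GABA-A receptors are chloride channels assembled from several subunits, usually alpha and beta with a gamma or delta, and the mix of subunits sets where a receptor sits and which drugs act on it. GABA-B receptors are G protein-coupled and need both of their subunits, while glycine receptors are chloride channels closely related to GABA-A receptors. The direction in which chloride flows depends on the potassium chloride cotransporter KCC2, which exports it, and the sodium potassium chloride cotransporter NKCC1, which imports it.

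Inhibitory cells were split by 5 marker genes, and in each split the marker-positive cells were set against the marker-negative cells of the same samples. There were 343 Prkcd-positive and 467 Prkcd-negative cells, 148 Sst-positive and 662 Sst-negative cells, 76 Isl1-positive and 734 Isl1-negative cells, 116 Nr2f2-positive and 694 Nr2f2-negative cells, and 167 Foxp1-positive and 643 Foxp1-negative cells. Prkcd (protein kinase C delta) and Sst (somatostatin) mark classical central amygdala types, and Isl1, Nr2f2 and Foxp1 encode transcription factors. The splits reuse the same cells, so that calls in one are not independent of calls in another. Of the 148 Sst-positive cells, 125 were also Prkcd-negative.

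The samples held 82 to 95 inhibitory cells and 8522750 to 22730327 gene counts, and an inhibitory cell had a median of 126576 counts. The median count was 120868 in Prkcd-positive and 130131 in Prkcd-negative cells, and it differed most in the Isl1 split, at 169576 in Isl1-positive and 123695 in Isl1-negative cells. The cells carried 376 distinct barcodes, of which 368 occurred in more than 1 sample and none in more than 3. Sample 5 stood apart in depth, with a median of 227570 counts per inhibitory cell against 96675 to 152952 in the other samples. It also held 2 cells positive for all 7 oligodendrocyte genes of the marker list (among them Mbp, Mog and Mobp), where no other inhibitory cell was positive for more than 3. Both had Gad1 and Gad2 counts and were negative for Prkcd and Sst. They touched the level of Slc12a2, which is given over all inhibitory cells with and without them. The Slc12a2 levels of the splits include them. Excitatory neuron markers were removed by the choice of cells, and of 5 microglia markers C1qa and C1qb had no counts, Cx3cr1 had 2, Csf1r had 60 with 2 positive cells and Aif1 had 232 with 7 positive cells.

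The promoters of 3 members are shown because Gabra4 and Glra2 differed in both the Prkcd and the Sst split, and because Gabrb1, which also differed in the Sst split, is the next protein-coding gene to Gabra4 on chromosome 5. Gabrb1 has a second window in the RefSeq table, further downstream, which held none of the searched motifs and is not shown. Sequences are from RefSeq (GRCm38.p6), each 250 bases before to 50 bases after an annotated start, 5′ to 3′ on the gene's own strand. They lie at chr5:71658259-71658558 (minus strand) for Gabra4, chr5:71657671-71657970 (plus strand) for Gabrb1 and chrX:165327344-165327643 (minus strand) for Glra2. Capitals mark matches to the searched motifs.
Gabra4: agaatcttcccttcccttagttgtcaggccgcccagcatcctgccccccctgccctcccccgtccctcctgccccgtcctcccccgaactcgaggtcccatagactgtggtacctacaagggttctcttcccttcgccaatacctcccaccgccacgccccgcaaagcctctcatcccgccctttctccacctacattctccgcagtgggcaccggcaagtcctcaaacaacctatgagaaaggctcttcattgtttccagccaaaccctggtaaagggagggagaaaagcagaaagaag
Gabrb1: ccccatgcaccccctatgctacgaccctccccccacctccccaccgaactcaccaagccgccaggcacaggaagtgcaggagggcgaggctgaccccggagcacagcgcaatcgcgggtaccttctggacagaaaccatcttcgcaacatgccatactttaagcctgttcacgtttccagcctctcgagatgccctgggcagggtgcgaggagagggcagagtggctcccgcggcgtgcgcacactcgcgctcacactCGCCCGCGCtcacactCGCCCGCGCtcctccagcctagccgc
Glra2: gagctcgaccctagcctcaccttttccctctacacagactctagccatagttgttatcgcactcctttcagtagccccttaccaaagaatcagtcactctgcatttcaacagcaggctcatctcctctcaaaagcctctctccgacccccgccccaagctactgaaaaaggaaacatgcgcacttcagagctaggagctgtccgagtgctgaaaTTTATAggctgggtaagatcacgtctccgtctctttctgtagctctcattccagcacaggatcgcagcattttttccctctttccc
Motifs were searched on both strands. GCGNGGGCG was in 5.55% of 32851 windows of the same length, TGACGTCA in 1.79%, TGANTCA in 7.81% and TATAAA in 13.6%. The Gabrb1 window shown held GCGNGGGCG in 2 places and the Glra2 window held TATAAA in 1, all read on the reverse strand, and the Gabra4 window held none of the 4. Windows of 23 of the 26 listed genes were searched, and none was searched for Gabrd, Glra1 and Slc12a2. Of the 23 searched genes, 4 held GCGNGGGCG, 3 held TATAAA, 1 held TGANTCA and none held TGACGTCA. The windows of Gabra4 and Gabrb1 did not overlap, but exons of these genes overlap on opposite strands in the GENCODE annotation. Since no source used here gives the strand of counting, reads in that overlap cannot be assigned to one gene, and the counts of Gabra4 and Gabrb1 are uncertain to that extent. The same holds for Gabra5 with Gm9962, Glra1 with Gm12236 and Gphn with Gm48226, RNAs annotated on the opposite strand.

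Over all inhibitory cells, 14 of the 24 genes were positive in at least 10% of cells. Levels are counts per 10000 gene counts, summed over the cells of a sample and given as mean ± SD (n = 9 samples). They are compared between classes of cells for 1 gene and not between genes, whose transcript lengths differ. Gabra2, the alpha2 subunit of synaptic receptors, had a level of 3.03 ± 0.24 and was positive in 77.2% ± 5.06 of cells. Gabra5, an alpha subunit of largely extrasynaptic receptors, was positive in 37.3% ± 7.31 of cells. Gabra4, whose product commonly partners the delta subunit outside synapses, was positive in 23.5% ± 4.24 of cells, and Gabra3 in 3.09% ± 2.76. These shares were 79.8%, 38.2%, 23.9% and 3.89% after each cell was thinned to 50000 counts.

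Both beta genes of the list were widely detected, Gabrb1 in 52.8% ± 3.97 and Gabrb2 in 37.5% ± 3.28 of cells. Gabrg1 and Gabrg3, which encode gamma subunits, were positive in 44.4% ± 3.22 and 18.2% ± 4.61 of cells. Gabrd (delta) was positive in 12.5% ± 2.97 and Gabrq (theta) in 4.93% ± 2.56. The remaining GABA-A genes were close to absent at this depth. Gabre (epsilon) was positive in 1 cell and Gabrr2 (rho2) in 2 cells, and Gabrr1 (rho1) had 1 count and was positive in 0 of 810 cells, which allows a share of up to 0.370%.

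Gabbr1, which encodes the GABA-binding subunit of the GABA-B receptor, had a level of 3.47 ± 0.42 and was positive in 81.3% ± 2.79 of cells. Gabbr2, which encodes the subunit that couples to G proteins, was positive in 26.3% ± 3.20. Among glycine receptor genes, Glrb, the beta subunit that binds gephyrin, was positive in 36.0% ± 5.51 of cells, Glra2 in 13.3% ± 4.57 and Glra3 in 3.32% ± 1.90. Glra1, the main alpha subunit of adult spinal cord, was positive in 1 cell, and Glra4 in 2 cells. Gphn (gephyrin) was positive in 24.1% ± 2.54 and Nlgn2 (neuroligin 2) in 2.98% ± 1.17 of cells, although 57.4% of cells had at least 1 count of Nlgn2. Slc12a5 (KCC2) was positive in 69.5% ± 4.82 and Slc12a2 (NKCC1) in 6.11% ± 2.79 of cells.

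The alpha genes were combined in several ways. Of the 4 alpha genes, a cell was positive for 1.41 ± 0.09 on average (SD over 9 samples). None was positive in 94 cells, 1 in 357, 2 in 291, 3 in 67 and all 4 in 1 cell. Gabra2 alone was the most common state with 284 cells, followed by Gabra2 with Gabra5 in 182 cells and Gabra2 with Gabra4 in 81. With a positive call at 1 count in place of 1 per 10000, the mean was 2.24.

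Pairs of genes whose products can meet in 1 receptor were counted in the same cells, beside the number that independence within each sample would give. Gabra4 and Gabrd were both positive in 41 cells against 23.6, above that number in 9 of 9 samples and, after thinning, in 8 of 9 (42 cells against 23.8). Gabra2 and Gabrg1, neighbours on chromosome 5, were both positive in 300 cells against 277, above it in 8 of 9 samples. Gabbr1 and Gabbr2 were both positive in 175 cells against 174, above it in 4 samples. Glra2 and Glrb shared 44 cells against 40.0, whereas Glra2 and Glra3 shared 2 against 3.49. Gabra4 and Glra2, which are not partners in 1 receptor, shared 42 cells against 25.4, above it in 8 of 9 samples. These counts are descriptions, since cells of a sample share their preparation and depth. The numbers under independence also do not take marker classes into account. Gabra4 was positive in 44.8% and Glra2 in 37.6% of cells with Sst and not Prkcd. In cells with Prkcd and not Sst these shares were 13.4% and 3.1%.

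Prkcd-positive cells had less Gabra4, Gabrb2, Gabrq, Glra2, Glra3, Glrb, Gphn and Slc12a5 than Prkcd-negative cells, and more Gabra2 and Gabra5. Of the 24 genes, 19 had enough counts to be tested, and 2 rose, 8 fell and 9 did not pass at an adjusted p under 0.05 in edgeR's quasi-likelihood test with sample as a block. Over all 11487 genes tested, 7.6% were higher and 9.74% lower. At an unadjusted p under 0.05 there were 12 of 19 members, against 28.6% of all genes, and DESeq2 called 2 higher and 8 lower, against 9.52% and 14.3% of all genes. The median log2 fold change was -0.49 over the tested members and -0.02 over all genes. Gabre, Gabrr1, Gabrr2, Glra1 and Glra4 were not tested in any split. With a cell called Prkcd-positive at 1 count, Gabra4 (log2 fold change -0.91) and Glra2 (-1.24) were the members that passed. Over all genes that fit called 377 higher and 280 lower, against 873 and 1119 in the main fit.

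The alpha genes Glra2 and Glra3 of the glycine receptor had the largest fold changes of the 10 members that passed. Glra2, an alpha subunit known from developing brain and from forebrain neurons, had a level of 0.00233 at the lowest, 0.0399 at the median and 0.278 at the highest of 9 samples in Prkcd-positive cells, against 0.313, 0.606 and 0.833 in Prkcd-negative cells. The ranges did not overlap. The log2 fold change was -3.65 ± 0.50 (SE), a 12.6-fold lower level, with an adjusted p of 0.000186 in edgeR's test. It was positive in 11 Prkcd-positive and 97 Prkcd-negative cells, and after thinning in 3.26% ± 4.13 of Prkcd-positive and 21.4% ± 7.32 of Prkcd-negative cells (SD, n = 9).

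Glra3, the alpha3 subunit, ran from 0.00180 to 0.0776 with a median of 0.0186 in Prkcd-positive cells, against 0.0207 to 0.280 with a median of 0.157 in Prkcd-negative cells. The ranges overlapped, and 8 of 9 samples were lower in the Prkcd-positive class (log2 fold change -3.03 ± 0.71, edgeR adjusted p = 0.00841). This rested on 2 positive cells in the Prkcd-positive class and 25 in the Prkcd-negative class, and with equal cell numbers in both classes the adjusted p was 0.0871. Glrb ran from 0.491 to 0.963 (median 0.624) in Prkcd-positive cells, against 0.834 to 1.68 (median 1.26) in Prkcd-negative cells. Its classes overlapped in range, but it was lower in the Prkcd-positive class of 9 of 9 samples, at a log2 fold change of -0.89 ± 0.12 and an edgeR adjusted p of 0.000164.

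Alpha genes moved in opposite directions. Gabra4 had levels of 0.243 to 0.461 (median 0.368) in Prkcd-positive cells, against 0.512 to 1.06 (median 0.851) in Prkcd-negative cells. No Prkcd-positive sample reached any Prkcd-negative one, and the log2 fold change was -1.13 ± 0.16 (edgeR adjusted p = 0.000269). Gabra2 ran from 2.86 to 4.10 (median 3.32) in Prkcd-positive cells, against 2.35 to 3.22 (median 2.75) in Prkcd-negative cells. The ranges overlapped while 9 of 9 samples were higher in the Prkcd-positive class, at a log2 fold change of 0.34 ± 0.08 (edgeR adjusted p = 0.00985).

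Gabra5 ran from 0.602 to 1.85 (median 1.24) in Prkcd-positive cells, against 0.559 to 1.18 (median 0.916) in Prkcd-negative cells, higher in 8 of 9 samples. Its log2 fold change of 0.53 ± 0.15 passed (edgeR adjusted p = 0.0261), but the call was lost when any 1 of samples 3, 5, 6, 7 and 9 was left out, with adjusted p up to 0.0716. Without cells positive for the myelin gene Mbp, Gabra2 and Gabra5 had log2 fold changes of 0.22 and 0.51 and did not pass (adjusted p of 0.130 and 0.0708 in edgeR's test), nor did they with sums per animal number (adjusted p of 0.107 and 0.0733). Gabra3 did not pass, at a level of 0.108 ± 0.054 in Prkcd-positive and 0.177 ± 0.085 in Prkcd-negative cells.

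Of the beta genes, Gabrb2 fell. Its level was 0.543 to 1.22 (median 0.827) in Prkcd-positive cells, against 1.21 to 2.0 (median 1.54) in Prkcd-negative cells, with ranges that met only at their ends. The log2 fold change was -0.93 ± 0.13 (edgeR adjusted p = 0.000157), lower in 9 of 9 samples. Gabrb1 did not pass, at 1.40 ± 0.30 in Prkcd-positive and 1.68 ± 0.23 in Prkcd-negative cells (log2 fold change -0.25 ± 0.12, edgeR adjusted p = 0.168). Neither gamma gene nor Gabrd passed. The theta gene Gabrq had 0 to 0.138 (median 0.0314) in Prkcd-positive cells, against 0.0389 to 0.398 (median 0.210) in Prkcd-negative cells, with overlapping ranges. It was lower in 9 of 9 samples (log2 fold change -2.41 ± 0.68, edgeR adjusted p = 0.0246), with 8 positive cells in the Prkcd-positive and 32 in the Prkcd-negative class. That call was lost without sample 3 or sample 8, at adjusted p of up to 0.0639.

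The chloride exporter gene Slc12a5 had levels of 1.45 to 2.35 (median 1.82) in Prkcd-positive cells, against 2.27 to 3.26 (median 2.65) in Prkcd-negative cells. The ranges overlapped at the edge, and 9 of 9 samples were lower in the Prkcd-positive class. The log2 fold change was -0.49 ± 0.09 (edgeR adjusted p = 0.00113). After thinning it was positive in 61.8% ± 10.2 of Prkcd-positive and 78.1% ± 3.58 of Prkcd-negative cells. Slc12a2 had 0.0143 to 0.222 (median 0.0925) in Prkcd-positive cells, against 0.0501 to 0.672 (median 0.172) in Prkcd-negative cells, and did not pass (log2 fold change -0.58 ± 0.47, edgeR adjusted p = 0.471). These values include the 2 cells of sample 5 with all 7 oligodendrocyte genes, which held 612 of the 1721 Slc12a2 counts of Prkcd-negative cells.

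Gphn ran from 0.239 to 0.664 (median 0.481) in Prkcd-positive cells, against 0.544 to 1.12 (median 0.664) in Prkcd-negative cells. It was lower in 9 of 9 samples with overlapping ranges (log2 fold change -0.52 ± 0.17, edgeR adjusted p = 0.0459). The call held in 3 of the 9 fits that left out 1 sample and was lost without sample 1, 2, 4, 5, 8 or 9, at adjusted p of up to 0.109. Gabbr1 had 2.72 to 4.64 (median 3.33) in Prkcd-positive cells, against 2.86 to 3.97 (median 3.56) in Prkcd-negative cells, and did not pass (log2 fold change -0.03 ± 0.06, edgeR adjusted p = 0.825). Gabbr2 and Nlgn2 did not pass either. Oligodendrocyte markers moved with this split: their 7 genes summed to 1.39 to 2.16 per sample in Prkcd-positive cells, against 0.680 to 48.7 in Prkcd-negative cells, where the highest value was that of sample 5. Without the 2 cells of sample 5 that were positive for all 7, the same count of 2 higher and 8 lower passed. Without Mbp-positive cells, Gabra4, Gabrb2, Gabrq, Glra2, Glra3, Glrb and Slc12a5 passed and fell.

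**Figure D1:**
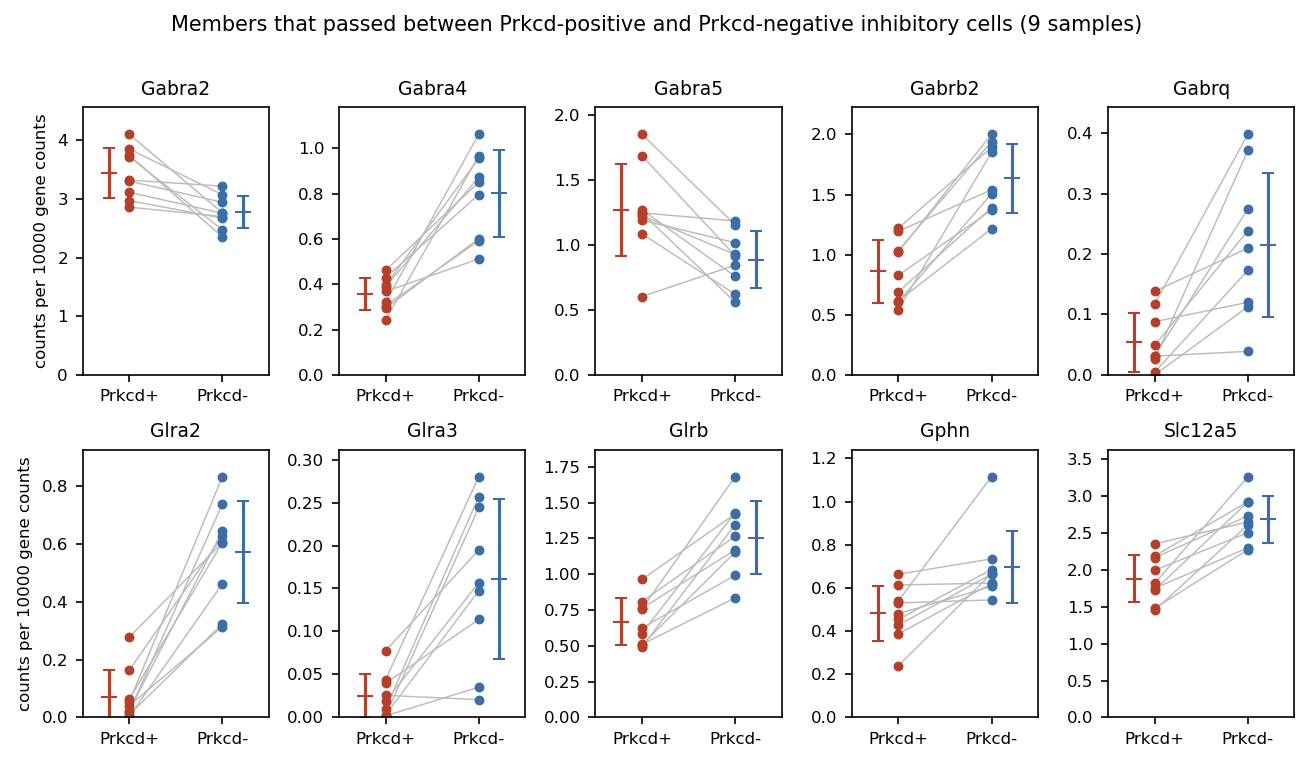
Level of each gene that passed in the Prkcd split (vertical axis, counts per 10000 gene counts) in Prkcd-positive (Prkcd+) and Prkcd-negative (Prkcd-) inhibitory cells. Each point is 1 of 9 samples, grey lines join the classes of a sample, and bars give mean ± SD. The Prkcd-positive points of Gabra4 (at most 0.461) and Glra2 (at most 0.278) all lie below the Prkcd-negative points.

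The alpha genes that a cell combined differed with Prkcd as well. Cells positive for Gabra2 and Gabra5 and no other alpha gene of the list made up 29.4% ± 7.84 of Prkcd-positive and 17.0% ± 6.21 of Prkcd-negative cells (SD, n = 9), higher in 8 of 9 samples. Cells with Gabra2 and Gabra4 made up 6.07% ± 4.33 of Prkcd-positive and 13.1% ± 5.50 of Prkcd-negative cells, lower in 7 of 9 samples. At 50000 counts per cell these shares were 29.3% and 16.9% for Gabra2 with Gabra5, and 5.61% and 13.6% for Gabra2 with Gabra4, in Prkcd-positive and Prkcd-negative cells. The number of alpha genes positive per cell was 1.42 ± 0.16 in Prkcd-positive and 1.40 ± 0.10 in Prkcd-negative cells, a difference within the SD whose order turned after thinning (1.45 in Prkcd-positive and 1.46 in Prkcd-negative cells) and at 1 count (2.15 in Prkcd-positive and 2.3 in Prkcd-negative cells). These shares follow from the gene levels above and were given no test.

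**Figure D2:**
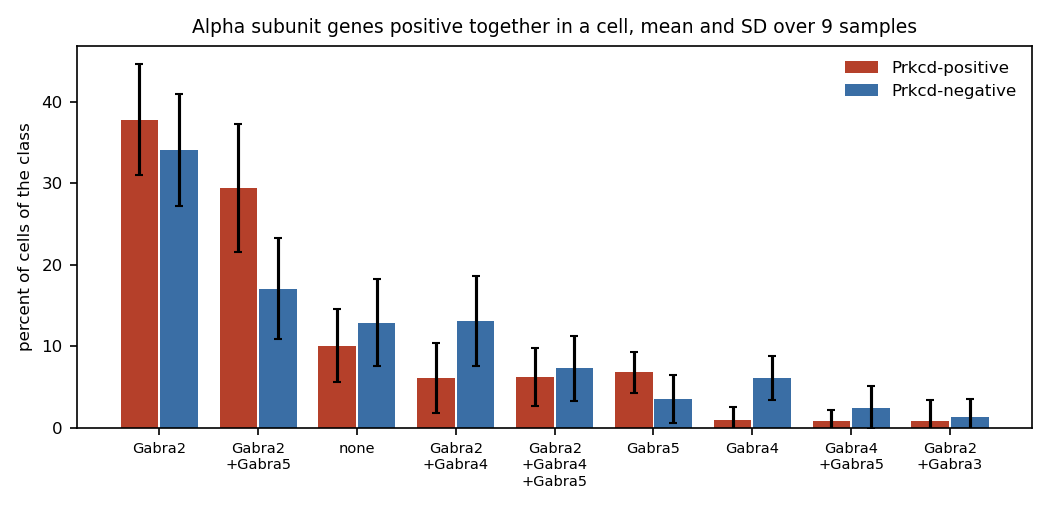
Percent of Prkcd-positive and Prkcd-negative inhibitory cells (vertical axis) positive for each combination of Gabra2, Gabra3, Gabra4 and Gabra5 (horizontal axis, combinations found in at least 10 cells). Bars are means over 9 samples and lines are SD. The pair Gabra2 with Gabra5 reached 29.4% of Prkcd-positive and 17.0% of Prkcd-negative cells.

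Sst-positive cells had more Gabra4, Gabrb1 and Glra2 than Sst-negative cells, and no member was lower. Of 19 members tested, 3 rose, 0 fell and 16 did not pass, where 2.26% of 11355 genes were higher and 2.26% lower. At an unadjusted p under 0.05 there were 7 members, where 16.1% of all genes were. DESeq2 called 5 higher (the same 3 with Gabbr1 and Gabra2) and 1 lower (Gabbr2), where it called 4.1% of all genes higher and 7.79% lower. The median log2 fold change was 0.16 over the tested members and -0.17 over all genes.

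Gabra4 ran from 0.721 to 1.64 (median 1.03) in Sst-positive cells, against 0.356 to 0.660 (median 0.489) in Sst-negative cells, with no overlap. Its log2 fold change was 1.18 ± 0.19 (edgeR adjusted p = 0.00306), higher in 9 of 9 samples, and after thinning it was positive in 42.4% ± 8.74 of Sst-positive and 19.7% ± 4.50 of Sst-negative cells. Glra2 ran from 0.110 to 1.26 (median 0.879) in Sst-positive cells, against 0.0786 to 0.444 (median 0.237) in Sst-negative cells. The ranges overlapped through sample 9, at 0.110 in Sst-positive and 0.198 in Sst-negative cells, and the other 8 samples were higher in the Sst-positive class (log2 fold change 1.85 ± 0.38, edgeR adjusted p = 0.0134).

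Gabrb1 ran from 1.47 to 2.62 (median 1.93) in Sst-positive cells, against 1.15 to 1.78 (median 1.37) in Sst-negative cells, higher in 8 of 9 samples with overlap. Its log2 fold change of 0.53 ± 0.13 passed (edgeR adjusted p = 0.0296), but not without sample 2, 3, 4, 6 or 7, at adjusted p of up to 0.0774. Cells with Gabra2 and Gabra4 and no other alpha gene of the list made up 19.9% ± 11 of Sst-positive and 7.43% ± 2.82 of Sst-negative cells, higher in 8 of 9 samples. With a cell called Sst-positive at 1 count none of the 3 genes passed. With sums per animal number Glra2 alone passed, and without Mbp-positive cells Gabra4 alone passed. Fewer genes of any kind were called in these fits. They gave 14 higher and 0 lower, 88 and 48, and 97 and 103, against 257 and 257 in the main fit.

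Slc12a5 did not pass in the Sst split, at 1.95 to 3.26 (median 2.50) in Sst-positive cells, against 1.73 to 2.79 (median 2.41) in Sst-negative cells (log2 fold change 0.16 ± 0.10, edgeR adjusted p = 0.463). Slc12a2 had 0.0126 to 0.287 (median 0.0509) in Sst-positive cells, against 0.0640 to 0.600 (median 0.161) in Sst-negative cells, and did not pass (log2 fold change -1.38 ± 0.66, edgeR adjusted p = 0.325). Of the 2157 Slc12a2 counts of Sst-negative cells, 612 were in the 2 cells of sample 5 with all 7 oligodendrocyte genes. Gphn did not pass either, at 0.614 to 1.23 (median 0.682) in Sst-positive and 0.456 to 0.730 (median 0.546) in Sst-negative cells. Gabbr1 had 2.73 to 5.58 (median 4.47) in Sst-positive cells, against 2.69 to 3.88 (median 3.44) in Sst-negative cells, higher in 7 of 9 samples without passing (edgeR adjusted p = 0.0993). In all 4 genes the ranges of the classes overlapped.

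Cells positive for 1 of Prkcd and Sst only were then set against each other, and cells with neither gene were described beside them. There were 320 Prkcd-only, 125 Sst-only and 342 cells with neither. Of the 23 cells with both, only 1 sample held the 5 needed for a sum, so their levels are not given. Of 18 members tested between Prkcd-only and Sst-only cells, 0 were higher and 5 lower in Prkcd-only cells (4.38% and 4.06% of 10398 genes). Glra2 (log2 fold change -5.06 ± 0.75, edgeR adjusted p = 0.000484), Gabra4 (-1.89 ± 0.26, adjusted p = 0.000294), Gabrb1 (-0.66 ± 0.15, adjusted p = 0.0101), Slc12a5 (-0.51 ± 0.12, adjusted p = 0.0147) and Gphn (-0.80 ± 0.23, adjusted p = 0.0400) fell. Gabra5 did not pass (log2 fold change 0.79 ± 0.27, edgeR adjusted p = 0.0988).

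Levels over these classes were ordered differently from gene to gene. Gabra4 had 0.338 ± 0.087 in Prkcd-only, 1.27 ± 0.43 in Sst-only and 0.632 ± 0.190 in cells with neither gene (SD, n = 9), and Glra2 had 0.0597 ± 0.0954 in Prkcd-only, 1.01 ± 0.44 in Sst-only and 0.404 ± 0.172 in cells with neither, so that both means were highest in Sst-only cells. Gabrb2 had 0.856 ± 0.289 in Prkcd-only, 1.14 ± 0.69 in Sst-only and 1.80 ± 0.38 in cells with neither gene, and Glrb had 0.654 ± 0.137 in Prkcd-only, 0.971 ± 0.253 in Sst-only and 1.36 ± 0.35 in cells with neither. For these genes the mean was highest in the cells with neither marker, and the difference between Prkcd-only and Sst-only cells did not pass (edgeR adjusted p of 0.741 for Gabrb2 and 0.127 for Glrb). Slc12a5 had 1.88 ± 0.37 in Prkcd-only cells, against 2.63 ± 0.38 in Sst-only and 2.72 ± 0.41 in cells with neither gene, and the last 2 classes differed by less than their SD. Gabra2 was at 3.33 ± 0.41 in Prkcd-only and 3.34 ± 0.68 in Sst-only cells, and at 2.63 ± 0.34 in cells with neither gene.

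**Figure D3:**
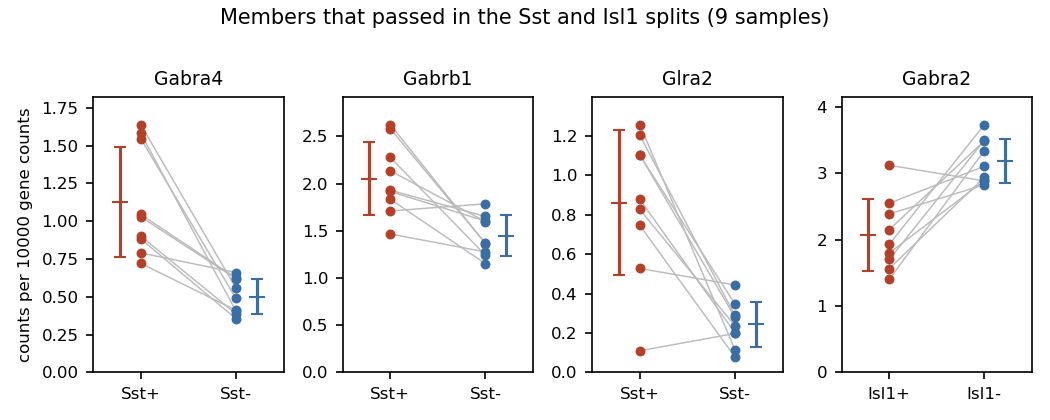
Level of the genes that passed in the Sst split (Gabra4, Gabrb1, Glra2) and in the Isl1 split (Gabra2), in counts per 10000 gene counts, with the marker-positive class (+) left of the marker-negative class (-). Points are 9 samples joined by grey lines, and bars give mean ± SD. Gabra4 shows no overlap between Sst-positive cells (0.721 or more) and Sst-negative cells (0.660 or less).

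Isl1-positive cells had less Gabra2 than Isl1-negative cells. Of 19 members 0 rose, 1 fell and 18 did not pass, where 1.7% of 11169 genes were higher and 3.15% lower and the median log2 fold change of all genes was -0.34. Gabra2 ran from 1.40 to 3.12 (median 1.93) in Isl1-positive cells, against 2.83 to 3.73 (median 3.10) in Isl1-negative cells. The ranges overlapped through sample 8, the 1 sample that was higher in the Isl1-positive class. The log2 fold change was -0.66 ± 0.14 (edgeR adjusted p = 0.0131). It did not pass with equal cell numbers (-0.67, adjusted p = 0.0813), without Mbp-positive cells (-0.48, adjusted p = 0.127) or with sums per animal number (-0.66, adjusted p = 0.0517). Over all genes these fits called 38 higher and 31 lower, 96 and 201, and 89 and 58, against 190 and 352 in the main fit. At an unadjusted p under 0.05 there were 5 of 19 members, where 20.2% of all genes were. DESeq2 called 0 higher and 3 lower (Gabra2, Gabrd and Gabrg1), where it called 4.45% of all genes higher and 13.4% lower. The 1 edgeR call and the counts of 5 and 3 lie near the shares over all genes.

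Gabrd, the delta subunit of extrasynaptic receptors, was low in Isl1-positive cells without passing in edgeR. Its level was 0 to 0.272 (median 0.109) in Isl1-positive cells, against 0.224 to 0.622 (median 0.381) in Isl1-negative cells (log2 fold change -2.51 ± 0.79, edgeR adjusted p = 0.0862), and 3 Isl1-positive cells were positive for it. Slc12a5 was at 2.39 ± 0.56 in Isl1-positive and 2.37 ± 0.36 in Isl1-negative cells (adjusted p = 0.972 in edgeR's test), and Gabbr1 at 4.17 ± 1.02 in Isl1-positive and 3.39 ± 0.41 in Isl1-negative cells (adjusted p = 0.207). Neither passed, and nor did Gphn or Slc12a2.

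No member passed in the Nr2f2 or the Foxp1 split by edgeR. In the Nr2f2 split 0.409% of 11008 genes were higher and 1.28% lower, and 4 of 19 members had an unadjusted p under 0.05, against 13.9% of all genes. DESeq2 called 0 higher and 2 lower (Gabra4 and Gabrd), against 1.58% and 8% of all genes. Gabrd had 0 to 0.216 (median 0.0650) in Nr2f2-positive cells, against 0.208 to 0.709 (median 0.387) in Nr2f2-negative cells. It was lower in 9 of 9 samples with a small overlap (log2 fold change -3.36 ± 0.91, edgeR adjusted p = 0.0886), and positive in 4 Nr2f2-positive and 97 Nr2f2-negative cells. In the Foxp1 split 0.176% of 11332 genes were higher and 0.0529% lower, and 2 of 19 members had an unadjusted p under 0.05, against 9.77% of all genes. DESeq2 called 0 higher and 1 lower, against 1.05% and 3.41% of all genes. These counts lie near the shares over all genes. The gene that DESeq2 called was Gabrq, at 0 to 0.160 (median 0.00797) in Foxp1-positive cells, against 0.0380 to 0.352 (median 0.165) in Foxp1-negative cells (log2 fold change -3.90 ± 1.03, edgeR adjusted p = 0.202). Slc12a5 had 2.48 ± 0.61 in Nr2f2-positive and 2.35 ± 0.27 in Nr2f2-negative cells, and 2.44 ± 0.78 in Foxp1-positive and 2.32 ± 0.27 in Foxp1-negative cells, and passed in neither split. A fold change that did not pass does not show that the classes were alike.

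**Figure D4:**
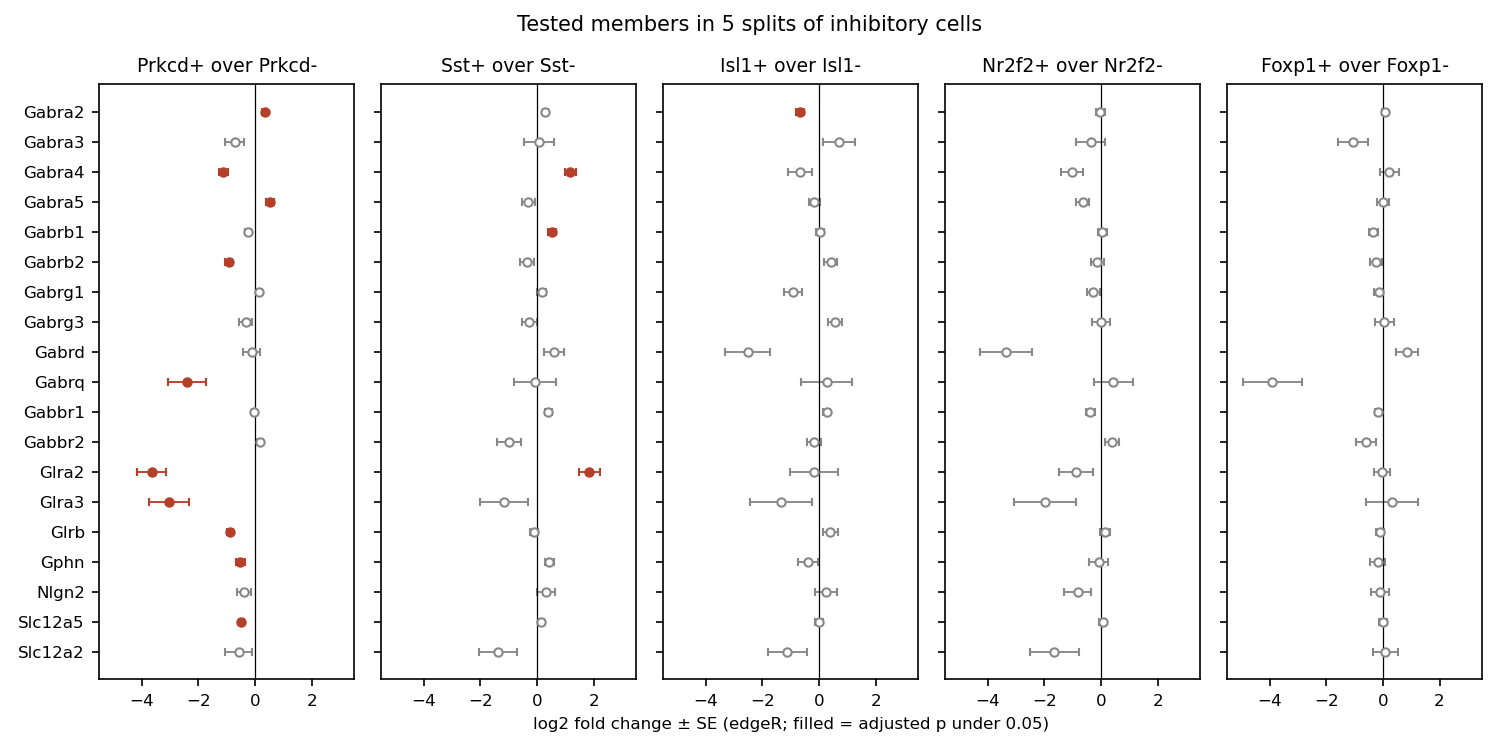
Log2 fold change ± SE of the 19 tested members (rows) in the 5 splits (panels), marker-positive over marker-negative cells, from edgeR. Filled points passed at an adjusted p under 0.05. There are 10 filled points in the Prkcd panel, 3 in the Sst panel, 1 in the Isl1 panel and 0 in the Nr2f2 and Foxp1 panels.

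The balance of chloride export and import was described by the log2 ratio of Slc12a5 to Slc12a2 counts within a sample. It was 4.04 ± 0.83 over all inhibitory cells, from 2.17 to 4.98 (n = 9). The low end was sample 5. Slc12a2 had a level of 0.481 in that sample, against 0.0687 to 0.216 in the other samples, and the 2 cells with all 7 oligodendrocyte genes held 612 of the 2313 Slc12a2 counts of the series, or 26.5%. Their own Slc12a2 levels were 6.91 and 5.16 per 10000. Without them sample 5 had 0.218, the ratio was 4.17 ± 0.55, and it ran from 3.29 to 4.98. Of 50 Slc12a2-positive cells, 13 were positive for Mbp.

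Between classes the ratio varied more than it differed. It was 0.17 ± 1.60 higher in Prkcd-positive than in Prkcd-negative cells (above in 4 samples, below in 5), and 1.69 ± 2.05 higher in Sst-positive than in Sst-negative cells (above in 7, below in 2). In Isl1-positive cells it was 1.23 ± 1.76 above that of Isl1-negative cells (8 above, 1 below), and in Nr2f2-positive cells 1.0 ± 1.47 above that of Nr2f2-negative cells, over the 7 samples with Slc12a2 counts in both classes. In the Foxp1 split the difference was -0.01 ± 1.04. Each mean difference was smaller than its SD over samples, and Slc12a2 was positive in 5 Sst-positive and 3 Isl1-positive cells, so the ratio rests on few cells there. The class ratios include the 2 cells with all 7 oligodendrocyte genes, which fell in the marker-negative class of sample 5 in each split. In sample 5 the ratio was 3.06 in Prkcd-positive and 1.96 in Prkcd-negative cells. It was 7.15 in Sst-positive and 1.80 in Sst-negative cells of that sample. The class differences are not given without these 2 cells.

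**Figure D5:**
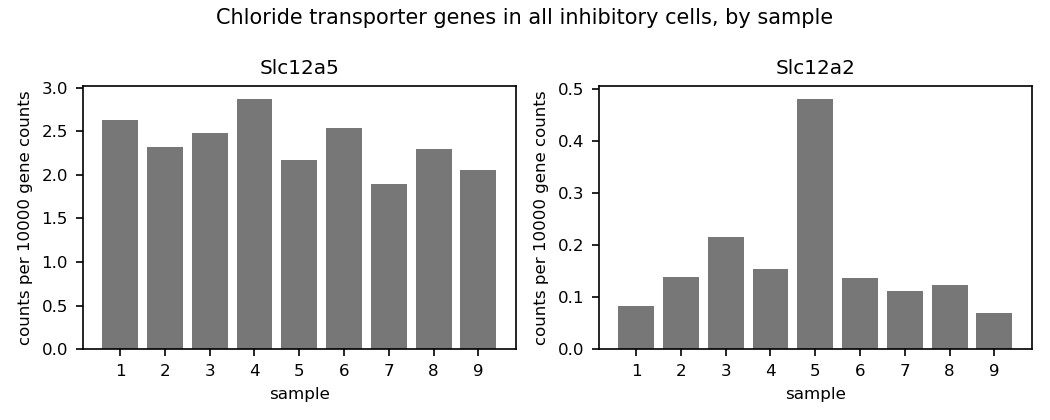
Level of Slc12a5 and Slc12a2 in all inhibitory cells of each sample (bars, counts per 10000 gene counts, samples 1 to 9). Slc12a5 is between 1.90 and 2.87 in every sample, while Slc12a2 is 0.481 in sample 5 and 0.216 or less in the others.

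Genes that place, move or modify these receptors and other chloride and bicarbonate genes were examined as a list of 59, of which 57 were in the table. In the Prkcd split 48 were tested, 2 rose and 14 fell, where 7.6% of all genes were higher and 9.74% lower. The lower ones with the smallest adjusted p were Nrxn3 (a presynaptic neurexin), Nsf (an ATPase of membrane fusion that binds GABA-A receptor beta subunits), Slitrk3 (a postsynaptic adhesion protein of inhibitory synapses) and Kif21a (a kinesin motor). Nrxn3 had a level of 2.57 ± 0.44 in Prkcd-positive and 5.05 ± 0.75 in Prkcd-negative cells (log2 fold change -0.95 ± 0.07, edgeR adjusted p = 9.39e-07). Nsf had 5.71 ± 0.34 in Prkcd-positive and 8.61 ± 1.10 in Prkcd-negative cells (-0.56 ± 0.05, adjusted p = 8.28e-06). Slitrk3 had 0.0142 ± 0.0180 in Prkcd-positive and 0.288 ± 0.112 in Prkcd-negative cells (-4.93 ± 0.63, adjusted p = 9.78e-05), and Kif21a had 5.71 ± 0.32 in Prkcd-positive and 7.37 ± 0.49 in Prkcd-negative cells (-0.34 ± 0.05, adjusted p = 0.000165). All 4 were lower in 9 of 9 samples. By group, 11 of 30 tested genes of receptor clustering and trafficking and 3 of 15 chloride and bicarbonate genes fell, while 1 of 30 and 1 of 3 GABA-B auxiliary genes rose.

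In the Sst split 47 genes of that list were tested, 4 rose and 1 fell, where 2.26% of all genes were called in each direction. Nrxn3 had 6.68 ± 1.0 in Sst-positive and 3.45 ± 0.56 in Sst-negative cells (log2 fold change 0.99 ± 0.08, edgeR adjusted p = 5.77e-06). Ano2, a calcium-activated chloride channel, had 0.451 ± 0.202 in Sst-positive and 0.104 ± 0.045 in Sst-negative cells (2.17 ± 0.40, adjusted p = 0.00684). Kctd12b, of the family of GABA-B auxiliary subunits, had 0.0172 ± 0.0423 in Sst-positive and 0.194 ± 0.085 in Sst-negative cells (-5.52 ± 0.99, adjusted p = 0.00598). It was also 1 of the 2 that rose in the Prkcd split, at 0.302 ± 0.145 in Prkcd-positive and 0.0619 ± 0.0431 in Prkcd-negative cells (2.55 ± 0.50, adjusted p = 0.00258). Hap1, which takes part in GABA-A receptor trafficking, rose in the Sst split (0.24 ± 0.06, adjusted p = 0.0332) and was the 1 gene of the list to pass in the Nr2f2 split, at 7.90 ± 0.81 in Nr2f2-positive and 6.31 ± 0.63 in Nr2f2-negative cells (0.33 ± 0.07, adjusted p = 0.0254). That was 1 of 47 genes tested in the Nr2f2 split, where 0.409% of all genes were higher and 1.28% lower. In the Isl1 split 3 of 47 rose and 0 fell, where 1.7% of all genes were higher and 3.15% lower. Nsf (0.58 ± 0.11, edgeR adjusted p = 0.00761) and the actin regulator Pfn2 (0.31 ± 0.08, adjusted p = 0.0367) were among those that rose. In the Foxp1 split 0 of 47 passed in edgeR's test, with 3 at an unadjusted p under 0.05, against 9.77% of all genes.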

How the data were processed

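The members and gene lists were chosen with earlier results of these data known. Raw counts for each cell were deposited by the authors as 1 table with 22601 gene symbols and 91 spike-in rows. A second deposited table holds the animal number of each cell, and the date field is part of the cell's name. The build NCBIM37 and Seurat are named in the submitters' processing notes. The sources used here give neither an aligner nor a strand of counting, and they do not mention molecular identifiers. The counts may hold PCR copies, and limits cover counting error only. GRCm38 served for sequences and gene order alone, and no coordinates of other builds were converted.

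From these counts, levels per 10000 gene counts were computed per cell and, summed over cells, per sample and class (at least 5 cells). No cell was removed for low depth (9 inhibitory cells had under 20000 counts, the lowest 401) and no doublet caller was run. Class sums were tested with edgeR 4.0.16 in R 4.3.3 (TMM, filterByExpr, quasi-likelihood, sample as a block because both classes come from it), with Benjamini-Hochberg adjustment over all genes tested. Thinning drew 50000 counts per cell with seed 7 and kept 789 inhibitory cells. Listed genes reported by sample are the members that passed in any split with Slc12a5, Slc12a2, Gphn and Gabbr1, and up to 4 passing genes per split of the wider list. Some genes of the wider and marker lists are not reported here. The fits were tested on simulated sums. Alternatives were DESeq2 1.42.0, median-of-ratios scaling, no filter, no block, other thresholds for a positive cell, thinned or equal cells, all cells, cells left out by depth or Mbp, 10 cells per class, sums per animal number, Prkcd-only against Sst-only cells and each sample left out. Leaving out the 2 cells with at least 4 oligodendrocyte genes was chosen after seeing the data.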

Additional observations from a re-analysis of the deposited data

Results flagged for a closer look

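In 53 groups of 9 sample values, 4 had a sample far from the others, where chance gives about 1 in 20 groups. The number found lies near that share, and the groups are not independent because they share samples and cells. Gabra3 had a level of 0.306 per 10000 in sample 4 over all inhibitory cells, against 0.0847 to 0.191 in the other 8 samples, and it passed in no split. Slc12a2 had 0.481 in sample 5, against 0.0687 to 0.216 in the others. In that sample the 7 oligodendrocyte genes summed to 30.9 per 10000, against 1.02 to 1.42 in the others, and without the 2 cells positive for all 7 the values of sample 5 were 0.218 for Slc12a2 and 1.73 for the marker sum. Gphn had 1.12 in the Prkcd-negative cells of sample 2, against 0.544 to 0.734 in the others, and its call in the Prkcd split was lost without that sample. The median count per inhibitory cell was 227570 in sample 5, against 96675 to 152952 in the others, and the Gabra5 and Gphn calls in the Prkcd split were lost without that sample. Such losses were not particular to the samples named here. Of the 9 fits that left out 1 sample, Gabra5 held in 4 and Gphn in 3.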

How the results depend on the processing

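In the Prkcd split 2 members were higher and 8 lower. The higher count was 0 against Sst-only cells, with Prkcd called at 1 count, with sums per animal number and without Mbp-positive cells, and the lower count was 5 against Sst-only cells and 2 with Prkcd called at 1 count. Leaving out 1 sample gave 1 to 2 higher and 6 to 8 lower. In the Sst split, with 3 higher and 0 lower, the higher count was 5 against Prkcd-only cells, 5 by DESeq2 (which called 1 lower), 0 with Sst called at 1 count, and 1 with sums per animal number or without Mbp-positive cells, and 2 to 3 with 1 sample left out. The fit with Sst called at 1 count gave 14 higher and 0 lower over all genes, so it cannot decide about the members. In the Isl1 split the 1 lower member became 2 with Isl1 called at 1 count (and 1 higher) and 3 by DESeq2. The lower count was 0 with equal cell numbers, sums per animal number or without Mbp-positive cells. It was also 0 with 10 cells per class or Isl1 called at 3 per 10000, but only 2 samples entered each of those fits. Over all genes they called 1 higher and 3 lower, and 2 higher and 3 lower, so they cannot decide about the members. In the Nr2f2 split 1 was lower with Nr2f2 called at 1 count, 2 by DESeq2 and 1 with thinned cells, and in the Foxp1 split DESeq2 called 1 lower. The Foxp1 difference in log2 ratio of Slc12a5 to Slc12a2 was -1.38 by medians over cells with both genes, against -0.01 ± 1.04 by summed counts. The medians leave out cells without Slc12a2, so these values are not the same measure. Slc12a2 was positive in 14 Foxp1-positive cells, and the other splits are not given by medians. The number of alpha genes per cell was 2.24 at 1 count. No called member turned its direction under the alternatives run. The order of alpha genes per cell between Prkcd-positive and Prkcd-negative cells, which differed by less than the SD, turned after thinning and at 1 count. Gabra4 and Glra2 passed in the Prkcd split under all 24 alternatives. With 10 cells per class all 9 samples stayed in that split, so this alternative repeated the main fit. The fits that left out 1 sample shared most of their samples. Leaving out the sample block and leaving out the 2 cells with oligodendrocyte genes kept every count within 1.5 times. The cause of these changes was not tested. Over all genes DESeq2 called more than edgeR, for example 466 higher and 884 lower against 257 and 257 in the Sst split. Rarely detected genes such as Glra3, Gabrq and Slc12a2 rest on few cells.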
